A study of Mus musculus with 778 samples.

Results

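Cohesin is the ring that holds sister chromatids together, and germ cells build it partly from subunits of their own. The 10 genes described here are the subunits particular to meiosis (Rec8, Smc1b and Stag3), their mitotic counterparts (Rad21, Smc1a, Stag1 and Stag2), the subunit common to both kinds of ring (Smc3) and the shugoshin genes Sgo2a and Sgo2b. They were chosen by name, and all 10 were found among the 23201 genes of the deposited count table.

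A cohesin ring joins a pair of SMC ATPases with a kleisin that closes it and a STAG protein bound to the kleisin. In meiosis the kleisin Rec8 can replace Rad21, Smc1b can replace Smc1a and Stag3 can replace Stag1 or Stag2. In mammalian oocytes cohesion is laid down before birth and has to last until the meiotic divisions, and shugoshin shields centromeric cohesin from cleavage by separase when homologous chromosomes part.

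Single oocytes of wild-type ICR mice were picked by hand from enzymatically dissociated ovaries and profiled by single-cell RNA-seq with molecular identifiers (UMIs). Non-growing oocytes (NGO, under 20 µm in diameter, 46 cells) came from mice aged 3 to 4 days. Growing oocytes measured 30 to 45 µm (GO1, 51 cells), 50 to 55 µm (GO2, 26 cells) or 60 to 65 µm (GO3, 44 cells). Fully grown oocytes measured above 70 µm (FGO, 56 cells). Growing and fully grown oocytes came from mice aged 3 to 4 weeks. Growth stage and mouse age therefore cannot be told apart in any comparison of NGO with another stage, NGO to GO1 and NGO to FGO included. The 223 cells came from 4 RNA libraries, and the cell names give the stage but not the library, so each stage is 1 pooled sample and stage and library cannot be told apart.

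Levels are UMIs of a gene per 1000000 UMIs of a stage (CPM), from the summed counts of its cells, and a stage held 24976634 to 64311908 UMIs. A level is thus a share of the counted RNA and not a number of transcripts per oocyte. From added reference RNA (spike-ins), the paper reports a higher relative abundance of mRNA in GO1 than in NGO. A lower or higher CPM therefore need not mean fewer or more transcripts per oocyte. There were no replicates, and therefore no test between stages was made. A call of higher or lower required a ratio of 2 or more between the CPM values of both stages, with 10 CPM or more in the upper one. The 95% intervals are exact intervals of counting error only. Single cells held 22279 to 3898137 UMIs, and the 10 deepest cells of a stage held from 42.6% of its UMIs (NGO) to 80.4% (GO1). All 12 oocyte markers examined, among them Zp3, Gdf9 and Ddx4, were at or above 10 CPM in every stage. From NGO to GO1, 5 of them were called lower (Zp1, Zp2, Zp3, Figla and Ddx4) and 2 higher (Bmp15 and Oosp1). Over all 8527 genes 25.7% were called lower and 20.6% higher. Figla was at 597.1 CPM in NGO, 65.5 in GO1 and 170.5 in FGO, and Ddx4 was at 341.7, 65.2 and 198.3 CPM. The summed level of 9 granulosa markers was 13 CPM in NGO and 38.3, 30.8, 28.7 and 17 CPM in GO1, GO2, GO3 and FGO, and Amh held 0 to 3 UMIs in any stage. From NGO to GO1, 2 of the 9 reached the minimum, both through GO1 alone, and both were called higher, beside the same 20.6% of all genes. They were Cyp19a1, from 1.11 to 16.3 CPM, and Nr5a2, from 6.91 to 14.5 CPM. Of the others, Fshr (2.82 and 2.32 CPM) and Foxl2 (0.198 and 0.187 CPM) were not higher, and the rest were higher but under the minimum. The sum of 8 stroma and theca markers went from 8.65 to 1.05 CPM at that step and stayed at or under 1.59 CPM. The sum of 7 blood and endothelium markers went from 9.13 to 39.3 CPM and reached 50.5 CPM in GO3, with the haemoglobin genes Hbb-b1 and Hba-a1 at 0 throughout. Most of it was Pecam1, which went from 4.6 to 37.6 CPM, was called higher and reached the minimum through GO1 alone at that step. The part of these cells' RNA in the results was not tested.

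The sharpest contrast lay at the start of growth. From NGO to GO1, the meiotic subunit Smc1b fell 10-fold, while the mitotic subunits Rad21, Stag1 and Stag2 and the shared subunit Smc3 rose 2.41- to 4.58-fold, and Sgo2b rose from 1 UMI to 373. The remaining mitotic subunit, Smc1a, did not rise, at 116.8 and 100.1 CPM. Of the 10 genes, 8 reached 10 CPM in NGO or GO1, and 5 of them were called higher and 1 lower. Rec8 and Stag3 stayed under 10 CPM, and Rad21 and Sgo2b reached it through GO1 alone, where they were high. Over all 8527 genes at that level, 20.6% were called higher and 25.7% lower, so calls in both directions were common at this step. The median log2 change was 1.35 for these 8 and -0.15 for all genes.

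The promoters of the pair of meiotic genes that were lower from GO1 onward are given first, from RefSeq on GRCm38.p6, each running from 250 bases before to 50 after the annotated start. Smc1b lies on the minus strand at chr15:85131908-85132207 and Stag3 on the plus strand at chr5:138280259-138280558. Capitals mark the E-box CACGTG, a palindrome that reads the same on both strands.
Smc1b: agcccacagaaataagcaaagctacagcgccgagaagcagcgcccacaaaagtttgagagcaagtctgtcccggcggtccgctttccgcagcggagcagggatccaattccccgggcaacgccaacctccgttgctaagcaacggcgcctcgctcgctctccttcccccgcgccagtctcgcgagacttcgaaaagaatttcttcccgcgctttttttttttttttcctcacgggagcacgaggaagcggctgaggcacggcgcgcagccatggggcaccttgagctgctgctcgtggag
Stag3: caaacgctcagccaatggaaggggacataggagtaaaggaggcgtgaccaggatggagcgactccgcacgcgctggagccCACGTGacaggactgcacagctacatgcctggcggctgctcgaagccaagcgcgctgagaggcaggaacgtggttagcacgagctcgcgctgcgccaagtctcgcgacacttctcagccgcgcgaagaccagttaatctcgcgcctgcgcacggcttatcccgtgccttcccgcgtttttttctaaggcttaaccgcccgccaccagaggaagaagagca
The E-box was found once in the Stag3 promoter, beginning 170 bases before the start, and in none of the other 8 promoters, where 9 promoters were matched to 8 of the 10 genes. Over all 32851 promoters of this length, 7.15% hold it. The Smc1b promoter was 60% G and C with 29 CpG dinucleotides, and the Stag3 promoter was 61.3% with 30, against medians of 52.7% and 7 over all promoters. Rad21 and Stag2 were not matched to a promoter. A motif match describes the letters only.

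Smc1b encodes the meiosis-specific SMC1 subunit, whose loss leads to early loss of cohesion in mouse oocytes. Its level was 659.6 CPM in NGO (95% interval 649.6 to 669.7), 65.8 in GO1 (62.8 to 69), 63.4 in GO2 (60.3 to 66.6), 77 in GO3 (74.6 to 79.4) and 157.9 in FGO (154.9 to 161.04). The order of the stages was therefore NGO, FGO, GO3, GO1 and GO2, and only the last pair had overlapping intervals. The change from NGO to GO1 was 10-fold (9.54 to 10.5), and NGO remained 4.18-fold above FGO (4.07 to 4.28). Both intervals cover counting error only. In log2 these changes were -3.32 and -2.06, but -2.99 and -1.69 without the 10 deepest cells of each stage. As a mean over cells Smc1b was at 677.8 CPM in NGO, 84.4 in GO1 and 229.9 in FGO. The log2 change from NGO to FGO was then -1.56. With 26 cells of each stage the changes were -3.31 and -2.09, near those of the sums. In single cells Smc1b ranged from 364.8 to 1110.7 CPM in NGO, with a median of 651.6, and from 0 to 343.4 in GO1, with a median of 68.1. Every NGO cell thus lay above every GO1, GO2 and GO3 cell, whose highest values were 343.4, 244.9 and 144.5 CPM, while FGO cells reached 877.4 and overlapped with NGO.

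In fully grown oocytes Smc1b was higher again. The change from GO3 to FGO was 2.05-fold (1.98 to 2.13), which made Smc1b the 1 cohesin or shugoshin gene called at that step, where 2.41% of 7622 genes were called higher and 3.54% lower. The call was lost when stages were scaled by DESeq2 size factors or by TMM, with a log2 change of 0.97 under both against 1.04. Among FGO cells, Smc1b ranged from 80.1 to 877.4 CPM, its median was 202.2 and the mean over cells was 229.9. Both per-cell values exceeded the 157.9 CPM of the sum, in which deep cells weigh most. The rank correlation of Smc1b with the UMIs of a cell was -0.68 over 56 FGO cells and -0.44 over 44 GO3 cells. With every cell thinned to 20000 UMIs the log2 change was 1.22, and without the 10 deepest cells of each stage it was 1.25. Across FGO cells Smc1b and Figla, a transcription factor of the oocyte, had a rank correlation of 0.81, against 0.46 over NGO, 0.34 over GO1, -0.20 over GO2 and 0.46 over GO3 cells. These values are descriptions over cells that share libraries and depth.

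Stag3, the meiotic STAG subunit, was highest in NGO as well, at a level under the minimum throughout. It was at 7.02 CPM in NGO (6.03 to 8.14), 1.57 in GO1 (1.13 to 2.12), 1.08 in GO2 (0.712 to 1.57), 1.32 in GO3 (1.02 to 1.69) and 1.69 in FGO (1.39 to 2.04), from 27 UMIs in GO2 to 177 in NGO. NGO stood apart from the other 4 stages, whose intervals overlapped with one another. Since Stag3 never reached 10 CPM, the size rule did not apply to it. The difference from NGO to GO1 was 4.47-fold (3.18 to 6.42), and it was 2.22-fold after thinning and 8.47-fold without the 10 deepest cells of each stage. A UMI of Stag3 was seen in 38 of 46 NGO cells and in 10 of 51 GO1 cells, and after thinning to 20000 UMIs per cell in 6 of 46 and 3 of 51. In GO1, 1 cell held 31% of the Stag3 UMIs.

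Rec8, the meiotic kleisin, was almost without counts. It held 1 UMI each in NGO, GO3 and FGO and 0 in GO1 and GO2, which is 3 UMIs in 3 cells among 191061593 UMIs, or 0.0157 CPM with an upper bound of 0.0459. The 0 counts allow levels of up to 0.112 CPM in GO1 and 0.12 CPM in GO2, taking 3 UMIs as the limit. No stage differed from another at this depth, and no fold is given. On NCBIM37, the annotation places Rec8 at chr14:56236874-56244232 on the plus strand, and Ipo4, an importin gene on the minus strand, ends 4 bases beyond it, tail to tail. Ipo4 was counted at 55.7 CPM in NGO and at 7.29 to 16.7 CPM in the other stages. Whether the counting used strand is not given in the sources used here, and the part of the neighbouring gene in the Rec8 count was not tested. Rad21l, the other meiotic kleisin, lay between 0.36 CPM in GO2 and 1.9 CPM in FGO and stayed under the minimum.

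**Figure D1:**
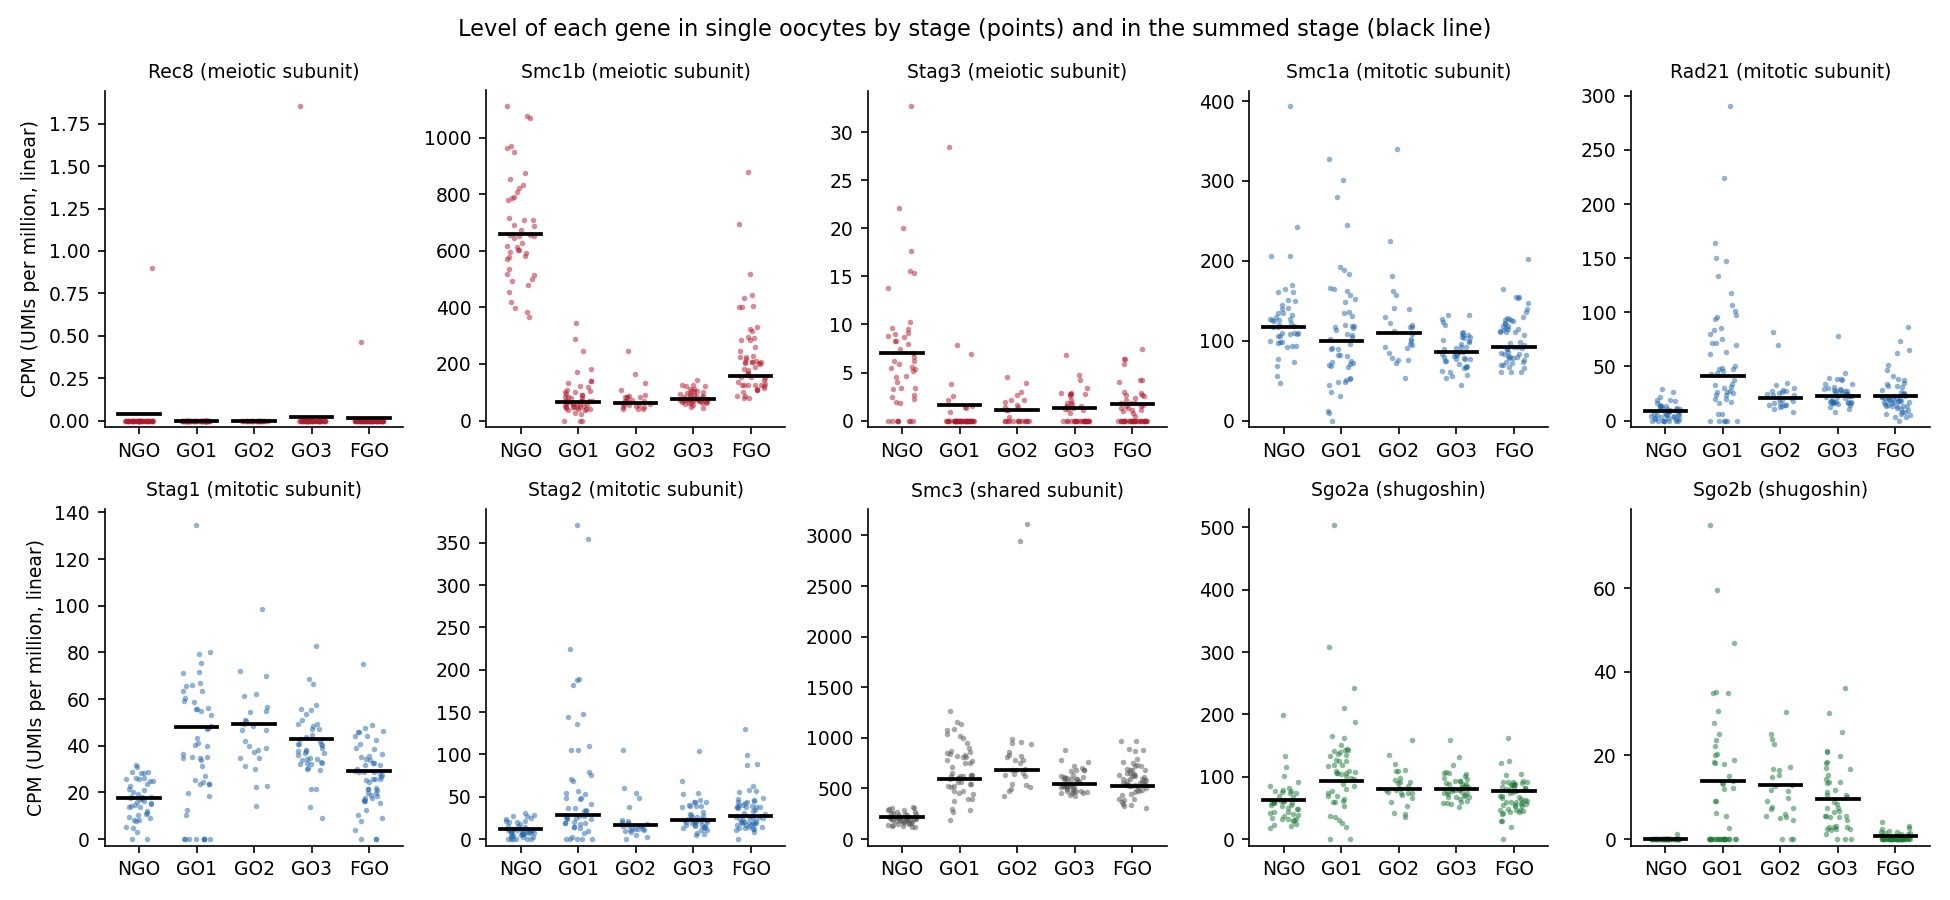
CPM of each of the 10 genes (vertical axis, linear, a scale for each gene) in single oocytes of the 5 stages (points) and in the summed counts of a stage (black line). For Smc1b the NGO cells (364.8 to 1110.7 CPM) lie above all GO1, GO2 and GO3 cells, Smc3 lies higher after NGO, and Sgo2b is near 0 in NGO and FGO.

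The mitotic kleisin Rad21 moved the other way from Smc1b at the start of growth. Its level was 9.01 CPM in NGO (7.87 to 10.3), 41.2 in GO1 (38.8 to 43.7), 20.7 in GO2 (18.9 to 22.5), 23.1 in GO3 (21.8 to 24.5) and 22.4 in FGO (21.2 to 23.6). GO1 was the highest stage and NGO the lowest, and the intervals of GO2, GO3 and FGO overlapped. It stood 4.58-fold higher in GO1 than in NGO (3.96 to 5.3), and 7.34-fold higher as a mean over cells and 7.67-fold after thinning. In cells it ranged from 0 to 29.5 CPM in NGO and from 0 to 290.4 in GO1, so the stages overlapped, and 1 GO1 cell held 22.9% of the UMIs. From GO1 to GO2 Rad21 stood 2-fold lower (1.8 to 2.22) and just missed the rule, with a ratio of GO2 to GO1 of 0.501. As a mean over cells it was called lower, at 2.43-fold.

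Of the mitotic STAG subunits, Stag1 was at 17.4 CPM in NGO (15.8 to 19.1), 48 in GO1 (45.4 to 50.7), 49.3 in GO2 (46.6 to 52.1), 42.9 in GO3 (41.1 to 44.7) and 29.3 in FGO (28 to 30.7). It rose 2.76-fold from NGO to GO1 (2.47 to 3.08), its GO1 and GO2 intervals overlapped, and FGO lay between NGO and the growing stages. With cells thinned to 20000 UMIs the Stag1 rise was 1.44-fold and was not called. Stag2 was at 11.7 CPM in NGO (10.4 to 13.1), 28.2 in GO1 (26.2 to 30.3), 16.7 in GO2 (15.1 to 18.3), 22.7 in GO3 (21.4 to 24) and 27.1 in FGO (25.8 to 28.4). It rose 2.41-fold from NGO to GO1 (2.1 to 2.76) and had overlapping intervals in GO1 and FGO. Cells of GO1 varied widely for Stag2, from 0 to 371.4 CPM, and the mean over GO1 cells was 66.8 CPM against 28.2 in the sum, which made the rise 6-fold over cells.

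Smc1a, the mitotic partner of Smc1b, changed least among the mitotic subunits. It was at 116.8 CPM in NGO (112.7 to 121.1), 100.1 in GO1 (96.3 to 103.97), 109.6 in GO2 (105.5 to 113.8), 86.4 in GO3 (83.8 to 89) and 92.6 in FGO (90.3 to 95). No step passed the size rule, the change from NGO to GO1 was 1.17-fold (1.11 to 1.23), and the intervals of NGO and GO2 overlapped. The cells of all stages overlapped, and their medians lay between 84.3 and 120.9 CPM.

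Smc3, which pairs with either SMC1 protein, rose from NGO to GO1 as did the mitotic subunits Rad21, Stag1 and Stag2, but not Smc1a. It was at 220.1 CPM in NGO (214.3 to 225.97), 594.1 in GO1 (584.9 to 603.4), 681.2 in GO2 (671.00 to 691.5), 541.5 in GO3 (535.1 to 548.03) and 523.6 in FGO (517.98 to 529.2). NGO was the lowest stage and GO2 the highest, and the intervals of all 5 stages were apart. GO1 stood 2.7-fold above NGO (2.62 to 2.78), and FGO stood 2.38-fold above it (2.31 to 2.45). NGO cells ranged from 115.02 to 319.98 CPM, below every cell of GO2 (from 422.2) and GO3 (from 428.7), while the lowest cells of GO1 (188.1) and FGO (311.1) overlapped with them. The highest GO2 cell reached 3112.1 CPM, against a GO2 median of 722.97.

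The shugoshin genes took different courses. Sgo2a, the shugoshin that protects centromeric cohesin in mouse oocytes, was at 62 CPM in NGO (59 to 65.1), 93.4 in GO1 (89.7 to 97.1), 81 in GO2 (77.5 to 84.6), 80.8 in GO3 (78.4 to 83.4) and 76.4 in FGO (74.3 to 78.6). No step passed the size rule. The change from NGO to GO1 was 1.51-fold (1.41 to 1.61), the intervals of GO2, GO3 and FGO overlapped, and the cells of all stages overlapped. The gene was called higher in GO1 when the 10 deepest cells were left out or when cells were thinned.

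Sgo2b, its paralogue, was counted almost only in growing oocytes. It held 1 UMI in NGO (0.0397 CPM, 0.001 to 0.221), 373 in GO1 (13.9 CPM, 12.6 to 15.4), 321 in GO2 (12.9 CPM, 11.5 to 14.3), 475 in GO3 (9.53 CPM, 8.7 to 10.4) and 47 in FGO (0.731 CPM, 0.537 to 0.972). The GO1 and GO2 intervals overlapped, GO3 lay just below them, and both NGO and FGO lay far below all 3 growing stages. A UMI was seen in 1 of 46 NGO cells, 28 of 51 GO1 cells, 23 of 26 GO2 cells, 41 of 44 GO3 cells and 18 of 56 FGO cells. With 1 UMI in NGO, the NGO to GO1 ratio of 351.3 had a counting interval from 62.7 to 13913. From GO3 to FGO the level was 13-fold lower (9.65 to 18), which the size rule did not call because GO3 stood just under 10 CPM. It was called lower as a mean over cells (21.6-fold), without the 10 deepest cells (16.6-fold) and with 26 cells of each stage (14.9-fold), and after thinning it was 3.82-fold lower and not called. In FGO, 1 cell held 9 of the 47 UMIs.

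RefSeq gives Sgo2a a pair of promoters, and the one at chr1:57995724-57996023 (plus strand) aligned with that of Sgo2b at chr8:63952121-63952420 (minus strand) over 207 bases, of which 74.9% were identical. Both are shown because the genes' stage patterns differ, with the identical aligned bases in capitals.
Sgo2a: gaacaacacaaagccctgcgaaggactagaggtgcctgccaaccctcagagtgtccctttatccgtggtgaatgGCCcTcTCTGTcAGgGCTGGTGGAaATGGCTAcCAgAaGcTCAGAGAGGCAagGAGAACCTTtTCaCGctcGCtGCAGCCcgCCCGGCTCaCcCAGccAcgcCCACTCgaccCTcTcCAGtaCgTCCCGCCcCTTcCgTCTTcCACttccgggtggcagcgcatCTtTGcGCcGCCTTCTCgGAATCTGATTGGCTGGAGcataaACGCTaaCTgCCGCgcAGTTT
Sgo2b: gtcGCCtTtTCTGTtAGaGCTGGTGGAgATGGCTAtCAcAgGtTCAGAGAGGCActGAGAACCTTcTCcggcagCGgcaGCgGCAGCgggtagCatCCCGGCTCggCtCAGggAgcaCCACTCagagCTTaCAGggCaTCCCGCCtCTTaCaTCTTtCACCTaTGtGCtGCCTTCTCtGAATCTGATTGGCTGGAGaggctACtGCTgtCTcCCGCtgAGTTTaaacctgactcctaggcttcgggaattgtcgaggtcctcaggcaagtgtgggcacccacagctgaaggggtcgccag
The other Sgo2a promoter aligned with Sgo2b over 17 bases only. The Sgo2b promoter was 58% G and C with 12 CpG dinucleotides, and the Sgo2a promoter shown was 60% with 19. The aligned stretch of Sgo2b lies before its annotated start. The transcripts of the paralogues were not compared, and their counts are uncertain as far as reads may match both.

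**Figure D2:**
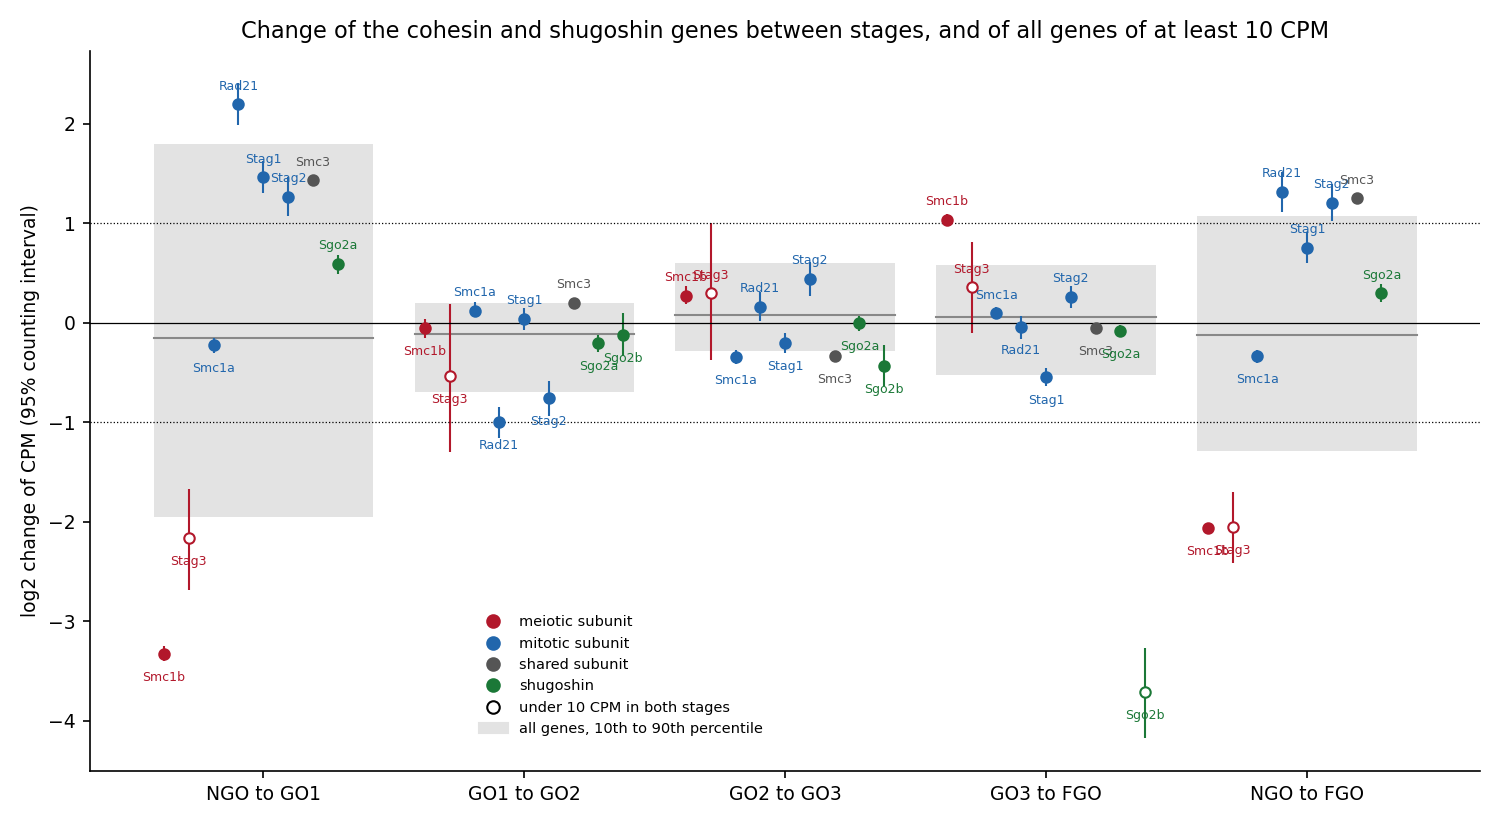
Log2 change of CPM between stages (vertical axis, with 95% counting intervals) for the genes with more than 3 UMIs in both stages, over the 10th to 90th percentile (grey) and the median (grey line) of all genes of at least 10 CPM. Dotted lines mark 2-fold. Smc1b stands at -3.32 from NGO to GO1, below the grey band, and Rad21 at 2.19, above it.

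In the later steps few calls were made from the stage sums. From GO1 to GO2 none of the 8 genes of at least 10 CPM was called, against 0.109% of 7356 genes called higher and 3.03% lower, and the largest changes were the 2-fold lower level of Rad21 and the 1.69-fold lower level of Stag2 (1.5 to 1.91). Both were called lower as a mean over cells and after thinning, Rad21 by 2.43- and 2.67-fold and Stag2 by 2.97- and 3.98-fold. From GO2 to GO3 none of 8 was called, against 3.34% of 7334 genes higher and 1.01% lower, and the log2 changes lay between -0.43 for Sgo2b and 0.44 for Stag2. From GO3 to FGO 1 of 7 was called, Smc1b, and the largest other change among the 7 was that of Stag1 at -0.55, while Sgo2b, at 9.53 CPM in GO3 just under the minimum, was 13-fold lower. Across the whole of growth, NGO to FGO, 3 of 7 genes were called higher and 1 lower, where 11.3% of 8132 genes were called higher and 16% lower. Those higher were Rad21 (2.49-fold, 2.16 to 2.87), Smc3 (2.38-fold) and Stag2 (2.31-fold, 2.04 to 2.63), and the lower was Smc1b. Rad21 reached the minimum through FGO alone, where it is high. The median log2 change from NGO to FGO was 0.75 for the 7 genes and -0.12 for all genes.

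Ratios of partner genes do not depend on scaling, and their change between stages does not depend on gene length. Smc1b over Smc1a was 5.65 in NGO (5.43 to 5.87), 0.658 in GO1 (0.619 to 0.699), 0.579 in GO2 (0.544 to 0.616), 0.891 in GO3 (0.853 to 0.931) and 1.71 in FGO (1.65 to 1.76). The balance thus moved towards Smc1a 8.59-fold from NGO to GO1 (7.77 to 9.49) and back towards Smc1b 1.91-fold from GO3 to FGO (1.77 to 2.06). Levels of different genes are not compared here, since length and capture differ, but the count of cells with more Smc1b than Smc1a UMIs can be followed. It went from 46 of 46 in NGO to 14 of 51 in GO1, 3 of 26 in GO2, 19 of 44 in GO3 and 53 of 56 in FGO. Against Smc3, Smc1b fell 27-fold from NGO to GO1 (25 to 29.3).

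For the STAG subunits, Stag3 over the sum of Stag1 and Stag2 was 0.241 in NGO (0.204 to 0.285), 0.0206 in GO1 (0.0148 to 0.028), 0.0164 in GO2 (0.0108 to 0.0239), 0.0202 in GO3 (0.0156 to 0.0258) and 0.03 in FGO (0.0246 to 0.0364). The ratio was 11.7-fold lower in GO1 than in NGO (7.28 to 19.2), and the intervals of GO1, GO3 and FGO overlapped. Rec8 over Rad21 has no interpretable change, since Rec8 held 1 UMI in NGO and 0 in GO1. Sgo2b over Sgo2a was 0.149 in GO1, 0.159 in GO2 and 0.118 in GO3, against 0.00064 in NGO (1 UMI of Sgo2b) and 0.00956 in FGO.

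**Figure D3:**
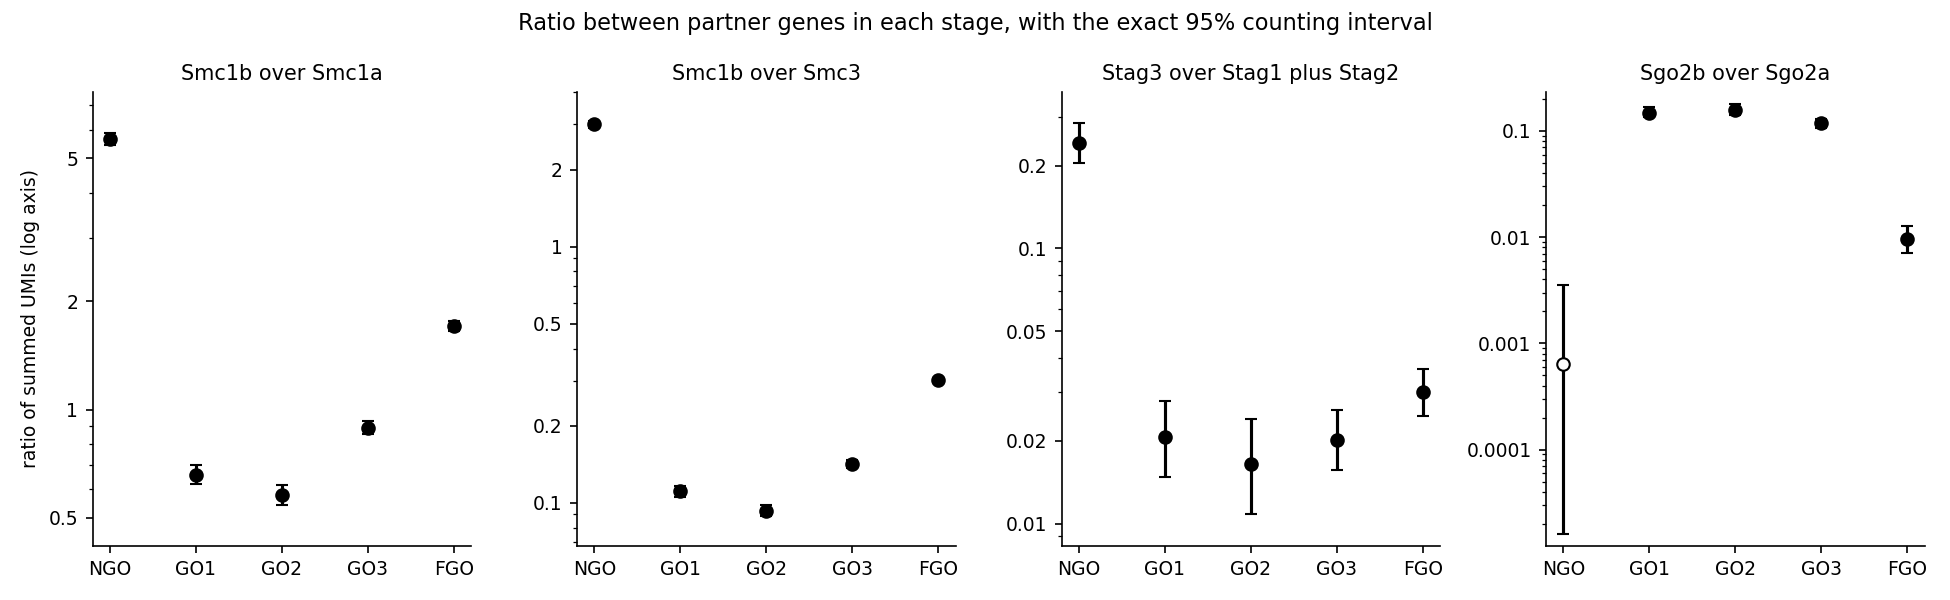
Ratio of the summed UMIs of partner genes (vertical axes, logarithmic) in each stage, with exact 95% counting intervals; the open point rests on 1 UMI. Smc1b over Smc1a falls from 5.65 in NGO to 0.658 in GO1 and stands at 1.71 in FGO, and Stag3 over Stag1 plus Stag2 falls from 0.241 to 0.0206.

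Genes that load, release, acetylate, protect or cleave cohesin were also followed, as 5 lists of 26 genes. From NGO to GO1, 24 reached 10 CPM, of which 7 were higher, 3 lower and 14 not called, and their median log2 change was 0.67, beside 20.6% higher, 25.7% lower and a median of -0.15 over all genes. As a mean over cells 8 were higher and 6 lower, and without the 10 deepest cells 7 were higher and 7 lower. The shares over all genes were computed for the stage sums only, so these counts have no matching share beside them. The acetyltransferases of Smc3 were both higher, Esco1 from 85.5 to 242.1 CPM (2.83-fold, 2.7 to 2.98) and Esco2 from 299.3 to 775.6 CPM (2.59-fold, 2.52 to 2.66). Wapl, which opens the ring and releases cohesin from chromatin, rose from 19.4 to 115.1 CPM (5.92-fold, 5.38 to 6.52). The other 3 release genes of at least 10 CPM were not called, among them Cdca5 (sororin, an antagonist of Wapl) at 200.01 and 326.1 CPM. The loaders Nipbl (49.5 and 82.3 CPM) and Mau2 (30.6 and 17.1 CPM) were not called from the sums. As means over cells both were, Nipbl higher (55.7 and 118.4 CPM) and Mau2 lower (32.4 and 11.5 CPM).

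Of 11 protection genes of at least 10 CPM, 3 were higher and 2 lower, again beside 20.6% and 25.7% of all genes, and 2 of the 5 (Ppp2r5a and Ppp2r5b) reached the minimum only through the stage where they were high. Sgo1, the shugoshin best known from mitosis, rose from 89.6 to 236.3 CPM (2.64-fold, 2.51 to 2.77), or 6.7-fold as a mean over cells, and the catalytic subunit gene of protein phosphatase 2A, Ppp2ca, rose from 17.5 to 53.1 CPM (3.03-fold, 2.72 to 3.37). Ppp2r5a, a B56 regulatory subunit of the phosphatase, rose from 0.833 to 10 CPM (12-fold, 7.7 to 19.7) and was not called under either scaling, where it stayed below the minimum, and another of them, Ppp2r5b, fell from 13.9 to 2.92 CPM (4.78-fold, 3.73 to 6.19), or 11.9-fold as a mean over cells. The scaffold subunit gene Ppp2r1a fell from 211.2 to 79.1 CPM (2.67-fold, 2.54 to 2.81), or 5.63-fold over cells. Meikin, which acts with Plk1 to protect meiotic cohesin, was at 16.5 and 25.5 CPM and was not called. In the cleavage list, Pttg1 (securin, the inhibitor of separase) rose from 1427.5 to 6344.9 CPM (4.44-fold, 4.39 to 4.5) and Csnk1d, a casein kinase 1 gene, fell from 75.5 to 28 CPM (2.69-fold, 2.47 to 2.94), or 4.11-fold over cells. Espl1, which encodes separase, was at 33.5 and 42.8 CPM and was not called.

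In the later steps the stage sums gave no call in these 5 lists: 0 of 23 from GO1 to GO2 (0.109% of all genes higher and 3.03% lower), 0 of 22 from GO2 to GO3 (3.34% and 1.01%) and 0 of 22 from GO3 to FGO (2.41% and 3.54%). As means over cells, for which no share over all genes was computed, 1 gene was higher from GO1 to GO2, Plk1 (111.2 and 344.3 CPM). At the step before, Plk1 went from 194.2 to 346.6 CPM in the sums but from 183.7 to 111.2 CPM as a mean over cells. As means over cells 4 genes were lower from GO1 to GO2, among them Sgo1 (577.3 and 211.8 CPM) and Ppp2ca (78.1 and 27.8 CPM). From NGO to FGO 4 of 23 were higher (Wapl, Esco1, Esco2 and Pttg1) and 2 lower (Ppp2r1a and Ppp2r5b), beside 11.3% and 16% of all genes. Related complexes gave further counts from NGO to GO1, to be read beside the same 20.6% and 25.7%. Of 5 chromosomal passenger genes 1 was lower, the kinase Aurkb, from 45.4 to 20.6 CPM. Of 9 condensin and SMC5/6 genes of at least 10 CPM, 2 were higher (Ncapg2, from 15.5 to 61.7 CPM, and Ncapd3, from 35.8 to 133.3 CPM) and 2 lower (Ncaph2, from 89.8 to 31.7 CPM, and Smc2, from 227.2 to 104.5 CPM). As a mean over cells Smc2 was at 221.9 and 133.4 CPM, under 2-fold, while Aurkb, Ncapg2, Ncapd3 and Ncaph2 stayed past 2-fold.

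**Figure D4:**
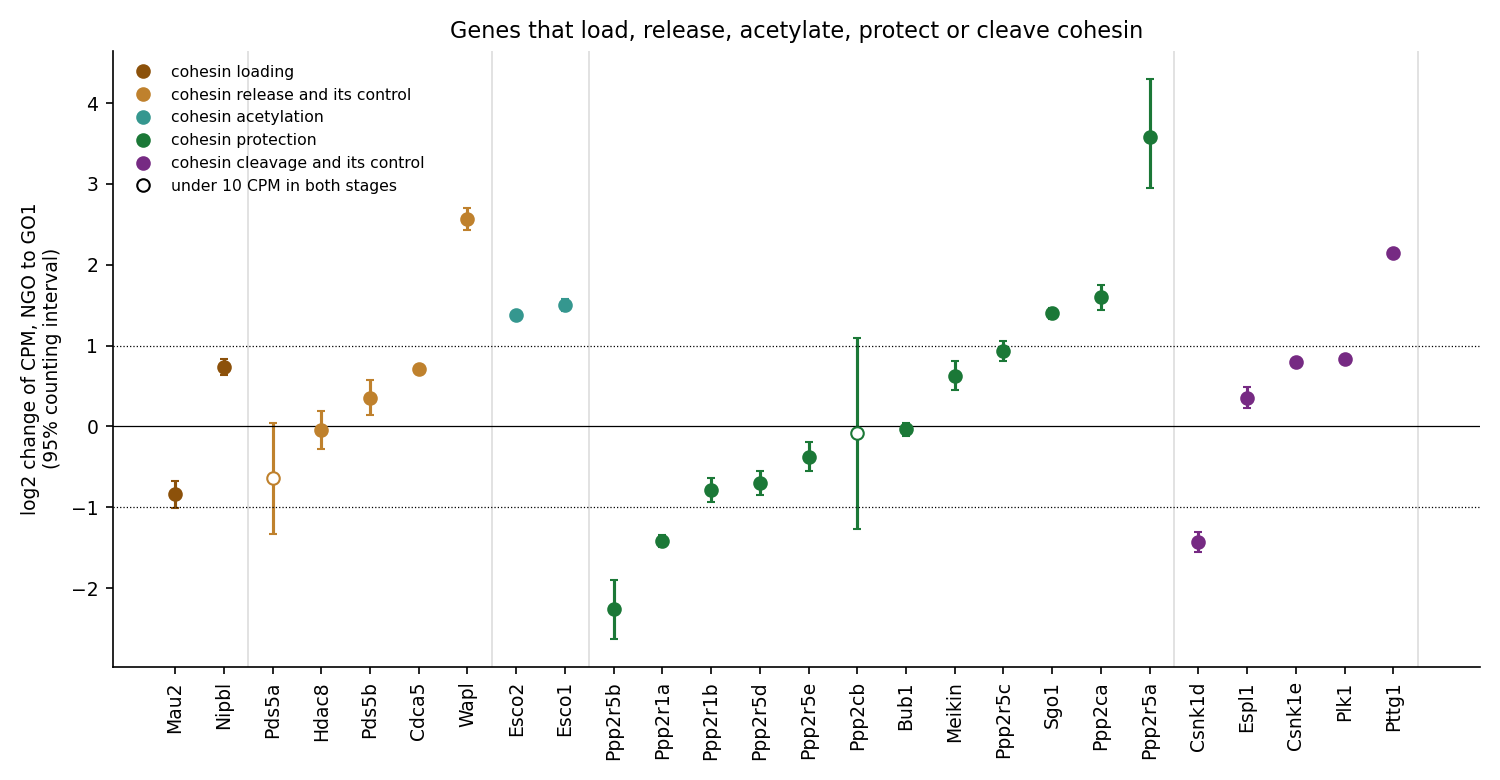
Log2 change of CPM from NGO to GO1 (vertical axis, with 95% counting intervals) of the 26 genes that load, release, acetylate, protect or cleave cohesin, in order of change within each list. Dotted lines mark 2-fold and open points are genes under 10 CPM in both stages; Wapl, Ppp2r5a and Pttg1 lie above 2 on the log2 scale and Ppp2r5b lies below -2.

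Among 8671 genes of at least 10 CPM in any stage, those nearest in profile were ranked by the root mean square difference of centred log2(CPM + 1) over the 5 stages. For Smc1b they were H2-K1 (0.05), a class I histocompatibility gene, Ifngr2 (0.07), an interferon gamma receptor chain, and Sohlh2 (0.08), a transcription factor of early oocyte growth. Sohlh2 was at 54.2 CPM in NGO, at 4.32 to 5.36 CPM in the growing stages and at 11.7 CPM in FGO. Ifngr2 was at 14.7 CPM in NGO, at 0.36 to 0.723 CPM in the growing stages and at 2.44 CPM in FGO. Adding 1 to the CPM shrinks changes at such low levels, so genes near in profile can differ in fold. For Stag3 they were Trpm7, Cep128 and Ap5z1 (each 0.04), though its low counts leave the profile coarse. For Sgo2b they were Ceacam20 (0.16), Ugt2b38 (0.16) and Slc6a15 (0.19), the first of which was at 3.25 CPM in NGO, 35.6 to 62.7 CPM in the growing stages and 7.01 CPM in FGO. Rec8 was left out for want of counts.

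On NCBIM37, Smc1b is annotated at chr15:84895121-84962387 (minus strand) and overlaps Gm10923 on the plus strand, Smc1a at chrX:148450971-148497237 overlaps the pseudogene Gm15267, Stag1 at chr9:100498217-100858964 overlaps the pseudogene Gm8661, and Sgo2a, named Sgol2 there, at chr1:58052815-58082743 overlaps Kctd18. The counts of these genes could include reads of the overlapping strand if strand was not used. Stag3 at chr5:138721468-138753621, Rad21 at chr15:51794151-51823306, Stag2 at chrX:39502494-39630362 and Smc3 at chr19:53674886-53720323 overlap no annotated gene.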

How the data were processed

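Single mouse oocytes of 5 growth stages were profiled by single-cell RNA-seq in 4 libraries. Per the methods, the authors split reads by cell barcode, mapped the trimmed reads to the mm9 transcriptome with Tophat and collapsed duplicates by UMI, and the deposited counts are whole UMIs per gene and cell with no normalization. Use of strand is not given in the sources used here. The design text names 296 cells, of which the authors kept 223 by their methods. They set limits on genes (over 3000) and transcripts (20000 to 4000000) and removed cells with a high ratio of spike-ins. The table holds 223 cells, all within the limits on genes and transcripts. Cells were picked by hand and no doublet caller was run. No cell is tied to a library, so cell barcodes that libraries share could not be counted, and the study's chromatin libraries were not used here.

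Counts were added up by stage and expressed as CPM (Python 3.11.15 with scipy 1.17.1). The size rule of at least 2-fold and at least 10 CPM in the higher stage was applied to every gene, and no p-value was computed. Levels carry exact Poisson intervals, and folds and ratios carry exact binomial ones. Alternatives were scaling by DESeq2 1.42.0 size factors or edgeR 4.0.16 TMM (for scaling alone), means over cells, leaving out the 10 deepest cells per stage, thinning to 20000 UMIs, 26 cells of each stage, and other limits of the size rule. Named beside the 10 genes are up to 2 of the largest rises and falls past the rule from NGO to GO1 in each gene list, cohesin control genes described by role, and the 3 genes nearest in profile to Smc1b, Stag3 and Sgo2b. Promoters come from RefSeq (GRCm38.p6) and gene positions from GENCODE on NCBIM37, where Sgo2b was not matched. The genes and lists were chosen with earlier results of these data known.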

Additional observations from a re-analysis of the deposited data

How the results depend on the processing

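No paired analysis was possible because each stage is 1 pooled sample and no result comes from a test; for the same reason no replicate could be left out. Scaling moved all log2 changes of a step together, by 0.10 (DESeq2 size factors) and 0.16 (TMM) from NGO to GO1, 0.19 and 0.17 from GO1 to GO2, -0.15 and -0.09 from GO2 to GO3, -0.06 under both from GO3 to FGO, and 0.08 and 0.17 from NGO to FGO. Shares of all genes called were computed for the stage sums under the main rule only, so the counts under other settings have no matching share. From NGO to GO1, 6 of the cohesin and shugoshin genes were called in all, and 2 with a minimum of 50 CPM. From GO1 to GO2, where none was called, 2 were called as a mean over cells, after thinning and with a limit of 1.5-fold, and 1 without the 10 deepest cells or with 26 cells of each stage; these were Rad21, Stag2 or both, and all were lower. From GO2 to GO3, 1 was called after thinning (Sgo2b). From GO3 to FGO, where 1 was called, there were 0 under DESeq2 size factors and TMM, 3 after thinning, and 2 as a mean over cells, without the 10 deepest cells, with 26 cells and with no minimum beyond 3 UMIs. From NGO to FGO, 4 were called, and 2 with a minimum of 50 CPM. The log2 change of Smc1b over Smc1a from NGO to GO1 was -3.10, and -2.79 as a mean over cells, -2.83 without the 10 deepest cells and -2.84 after thinning. That of Stag3 over Stag1 plus Stag2 was -3.55, with -4.58, -5.01 and -2.61 under the same settings. For the 26 cohesin control genes, whose alternatives were added after the data were seen, the sums gave 0 calls in each of the 3 later steps. From GO1 to GO2 there were 5 as a mean over cells, 5 without the 10 deepest cells, 6 after thinning and 3 with 26 cells of each stage. From GO2 to GO3 there were 1 without the deepest cells and 3 after thinning, and from GO3 to FGO 1 and 2. Rec8 over Rad21 gave no value under any setting, with Rec8 at 0 or 1 UMI in both stages. Of 266 log2 changes of the cohesin and shugoshin genes under 6 settings, 239 kept their sign, no called change reversed, and 27 uncalled ones did, among them Smc1b from GO1 to GO2 under both scalings (0.14 and 0.11 against -0.05). The cause of these differences was not tested. With 3 UMIs in all, no change of Rec8 was detectable at this depth.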

Other observations

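The promoters of these genes were also described by features that were not used to choose the genes. The 9 promoters matched to 8 of the genes were 54% to 73.7% G and C and held 11 to 43 CpG dinucleotides. All lay above the medians of 52.7% and 7 over all 32851 promoters. The quartiles over all promoters were 45.7% and 61.7% for G and C and 3 and 20 for CpG. Several of the 9 lay within them, so being above the median does not set these promoters apart. The CCAAT box, searched on both strands, occurred in 8 of the 9, against 37.4% of all promoters, and Smc3 was the gene without it. The GC box GGGCGG occurred in 5 of the 9, against 35.7%. The homeobox motifs TAATTA and TAATTG occurred in 0 of the 9, against 5.29% and 8% of all promoters. With shares this low, 0 of 9 does not set these promoters apart. Sgo2a counts with both its promoters, and the one at chr1:57995724-57996023 aligned with that of Sgo2b over 207 bases, so the 9 are not all separate cases. These counts are descriptions with no test.

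Within a stage, single cells varied in ways that a stage sum does not show. The rank correlation of Smc3 with the UMIs of a cell was 0.42 over 46 NGO cells, -0.55 over 26 GO2 cells and -0.47 over 56 FGO cells. Between Smc1b and Smc3 it was -0.33 in NGO, 0.46 in GO2 and 0.20 in FGO, and between Smc1b and Smc1a it was 0.14 in NGO and 0.42 in FGO. Cells share libraries and depth, so these values are descriptions.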
